A study of Mus musculus with 4 samples.

Results

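The type I interferon response genes described here are 39 genes taken by symbol from both RNA matrices, out of 32285 genes counted, and all 39 were found. They comprise the IFIT genes (Ifit1, Ifit2, Ifit3, Ifit3b), the ISG15 system (Isg15, Usp18, Herc6), the oligoadenylate synthetase family (Oas1a, Oas2, Oas3, Oasl1, Oasl2), the Schlafen genes (Slfn1, Slfn4, Slfn5, Slfn8), membrane factors (Ifitm1, Ifitm3, Bst2), nucleic acid sensors (Ifih1, Ddx58, Dhx58, Zbp1, Ifi203, Ifi204), transcription factors (Irf7, Irf9, Stat2) and other inducible genes (Rsad2, Cmpk2, Rtp4, Ifi44, Ifi47, Trim30a, Xaf1, Ifi27l2a, Parp14, Samd9l, Eif2ak2).

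The cells were CD45.2+ leukocytes sorted from digested lungs of C57B6/J WT mice and of Plaur–/– mice, which lack the urokinase receptor uPAR. Mice of both genotypes received LPS/OVA on days 0 and 7 and inhaled OVA, the egg-white allergen ovalbumin, on day 14. The design names 8 mice of each genotype. How many of them entered a library, which part of Plaur was removed and the animals' age are not given in the sources used here. The labels speak of circulating leukocytes and also of a total lung lysate. Each genotype had 1 RNA library counted at the 3′ ends of transcripts and 1 companion library of 5 antibody tags. With 1 library per genotype there is no replicate and no test between genotypes. Intervals, given in parentheses after a value, are at the 95% level and cover counting error only.

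Type I interferons signal through a receptor of the subunits Ifnar1 and Ifnar2 and the kinases Jak1 and Tyk2. The kinases activate the factor ISGF3, of which Stat2 and Irf9 are subunits, and ISGF3 binds interferon-stimulated response elements in promoters. The induced proteins sense foreign nucleic acid, hinder viral entry or replication, and feed back on the pathway. In the lung these genes are best known from viral infection, and neutrophils and monocytes can carry them strongly.

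The promoters of 6 members are shown because these genes stand at either end of a pattern described below. Ifit1, Ifit3, Isg15 and Rsad2 stood higher in a minority of neutrophils with many member UMIs, while Ifitm1 and Slfn1 were spread more evenly. Each run holds the 250 bases before a start listed for the gene, 5′ to 3′ on the gene's own strand, from RefSeq on GRCm38.p6 (mm10). For Ifit3 and Ifitm1 the whole gene is listed from further upstream, at 34583119 and 140967429, so these runs lie inside its bounds. Capitals mark the response element letters GAAANNGAA on either strand, with overlapping matches merged.

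Ifit1 (chr19:34640639-34640888, + strand): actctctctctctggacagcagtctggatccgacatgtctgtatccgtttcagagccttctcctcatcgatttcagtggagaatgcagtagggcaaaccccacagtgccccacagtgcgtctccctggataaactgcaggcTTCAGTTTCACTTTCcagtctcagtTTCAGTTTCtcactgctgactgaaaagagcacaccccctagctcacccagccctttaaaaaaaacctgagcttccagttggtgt
Ifit3 (chr19:34583279-34583528, + strand): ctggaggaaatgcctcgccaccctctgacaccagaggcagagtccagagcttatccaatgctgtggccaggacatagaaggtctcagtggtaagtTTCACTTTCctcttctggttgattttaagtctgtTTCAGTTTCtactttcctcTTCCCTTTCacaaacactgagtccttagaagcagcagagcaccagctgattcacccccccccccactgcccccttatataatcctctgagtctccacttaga
Isg15 (chr4:156200819-156201068, − strand): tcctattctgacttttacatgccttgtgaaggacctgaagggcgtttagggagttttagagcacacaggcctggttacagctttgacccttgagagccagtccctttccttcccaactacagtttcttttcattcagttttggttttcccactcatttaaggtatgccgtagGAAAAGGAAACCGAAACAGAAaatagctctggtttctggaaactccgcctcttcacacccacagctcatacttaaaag
Rsad2 (chr12:26456453-26456702, − strand): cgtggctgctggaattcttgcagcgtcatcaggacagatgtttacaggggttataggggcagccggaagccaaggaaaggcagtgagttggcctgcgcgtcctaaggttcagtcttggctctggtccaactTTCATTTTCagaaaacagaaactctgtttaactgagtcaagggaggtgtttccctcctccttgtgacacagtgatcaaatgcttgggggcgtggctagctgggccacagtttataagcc
Ifitm1 (chr7:140967826-140968075, + strand): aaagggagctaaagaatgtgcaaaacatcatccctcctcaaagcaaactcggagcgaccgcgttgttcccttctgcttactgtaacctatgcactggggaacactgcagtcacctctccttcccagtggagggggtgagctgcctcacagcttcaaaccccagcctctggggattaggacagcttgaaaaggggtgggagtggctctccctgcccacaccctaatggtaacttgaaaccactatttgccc
Slfn1 (chr11:83116570-83116819, + strand): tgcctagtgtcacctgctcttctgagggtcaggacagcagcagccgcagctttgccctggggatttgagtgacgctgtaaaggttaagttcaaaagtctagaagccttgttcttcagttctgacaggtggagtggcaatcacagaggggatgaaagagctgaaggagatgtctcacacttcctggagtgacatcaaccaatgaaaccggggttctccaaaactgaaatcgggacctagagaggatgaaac

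Of the 39 members 31 had a promoter in the RefSeq table. GAAANNGAA was present in 14 of these 31 (45.2%), more than once in 8, and in 7.13% of all 32851 promoter windows of that length. The letters TTCNNNGAA of the gamma-activated sequence, an element of interferon-gamma responses, were present in 4 of 31 members (12.9%) and in 7.02% of all windows. The strings were searched on both strands and can overlap each other. A match describes the letters only.

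The WT-labelled library held 9024 barcodes and the KO-labelled one 10102, and 8684 and 9584 cells were kept. Their median depth was 3209 and 2777.5 unique molecular identifiers (UMIs, each standing for 1 captured RNA molecule). The libraries had 16 barcodes in common. UMIs of Plaur were present in both, at 527 and 455 CPM (UMIs per 1000000 gene UMIs). Since a 3′ count can lie outside the removed part, this checks nothing, and every direction below rests on the labels. Clustering gave 32 clusters, from which 19 cell classes with 50 or more kept cells per library were named by marker sets. A class name means cells like that type, and these rebuilt names may differ from the study's.

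Counts were summed over the cells of a class within each library and expressed as CPM, and paired values below give the WT-labelled library before the KO-labelled one. Log2 KO/WT is the log2 ratio of the second to the first. The summed members were highest in classical monocytes (8295 against 11198 CPM), then in neutrophils (6235 against 9749 CPM), plasmacytoid dendritic cells (5817 against 7654 CPM) and nonclassical monocytes (4753 against 6923 CPM). The other classes, lymphoid or not, held less. Regulatory T cells stood at 3742 against 4114 CPM, alveolar macrophages at 1246 against 1110 CPM and NK cells at 1001 against 1353 CPM. The median log2 KO/WT over members with 20 or more UMIs was above 0 in 14 of 19 classes. It was 0.62 in plasmacytoid dendritic cells, 0.57 in group 2 innate lymphoid cells (on 13 measured members), 0.53 in neutrophils, 0.48 in nonclassical monocytes, 0.39 in plasma cells, 0.36 in NK cells and 0.33 in classical monocytes. Interstitial macrophages (−0.17), alveolar macrophages (−0.14) and CD4 T cells of cluster 25 (−0.14) had the lowest medians. Some of these medians moved by over 1.5 times under another setting. With doublet calls kept, NK cells stood at 0.92, nonclassical monocytes at 0.17, plasma cells at 0.11 and alveolar macrophages at −0.0008. Clustering without interferon genes gave 0.12 in group 2 innate lymphoid cells, and thinning each cell gave 0.32 in plasmacytoid dendritic cells and −0.05 in interstitial macrophages.

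**Figure D1:**
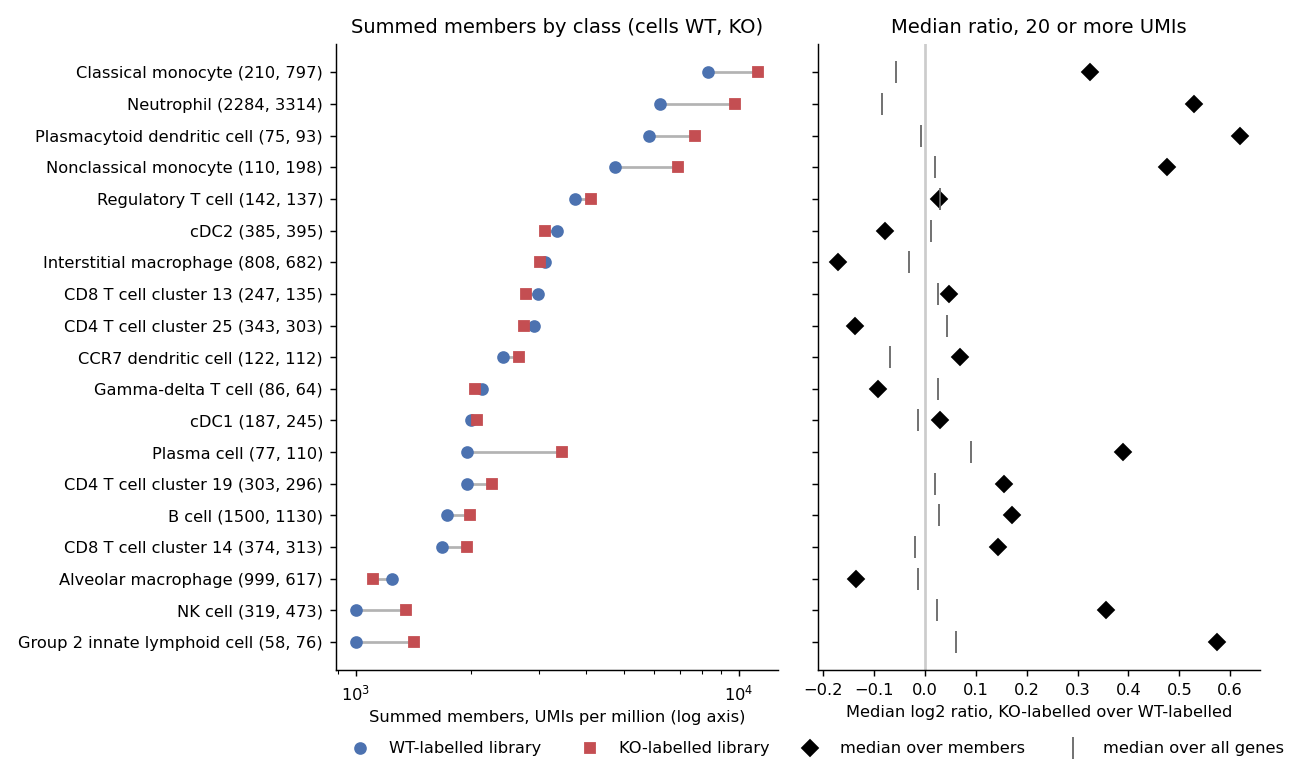
Left, summed CPM of the members in each cell class on a log axis, circles for the WT-labelled and squares for the KO-labelled library. Right, the median log2 KO/WT over members (diamonds) beside that over all genes (ticks), for example 0.53 and −0.08 in neutrophils.

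In neutrophils, the granulocytes that formed the most numerous class (2284 and 3314 cells), 36 of 38 measured members had more CPM in the KO-labelled library. By 1.5-fold or more, 18 were higher and 1 was lower, while 4.65% and 14.1% of the 9257 genes measured passed the same limits. The members' median was 0.53 against −0.08 over all genes. Their sum gave a log2 KO/WT of 0.64 (0.63 to 0.66). Ifi44, the member not measured, had 0 UMIs in both libraries, which allows up to 0.660 and 0.492 CPM. Most neutrophils of the WT-labelled library lay in clusters 6, 12 and 5, and most of the KO-labelled library in clusters 6, 20 and 12. The summed neutrophil markers stood at 101835 against 127741 CPM (9 of 12 higher). In such sums, fewer responding cells and less RNA per cell cannot be told apart, so single cells are described further on.

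The IFIT genes, whose proteins bind foreign RNA ends and restrain translation, lie side by side on chromosome 19 (Ifit1 at 34640889 to 34650009, GRCm38.p6). In neutrophils Ifit1 stood at 25.2 against 72.6 CPM, log2 KO/WT 1.52 (1.25 to 1.80). Ifit3 stood at 14 against 39.1 CPM, log2 KO/WT 1.49 (1.12 to 1.87). Ifit2 rested on 22 and 79 UMIs, at 3.94 against 10.5 CPM, log2 KO/WT 1.42 (0.72 to 2.17). Ifit3b, at 8.59 against 30.1 CPM, log2 KO/WT 1.81 (1.36 to 2.29), is a near copy of Ifit3, so the division of reads between them is uncertain. All 4 intervals lay above 0, and these were the 4 highest ratios among the members. Outside cluster 11, described below, Ifit1 was higher in 3 of 4 neutrophil clusters (log2 KO/WT from −0.62 to 1.56). Ifit3b was higher in 2 of 3 measured clusters (−0.59 to 1.66), Ifit3 in 2 of 2 and Ifit2 in 1 of 1. Cluster 11 has IFIT genes among its leading genes and held 19 and 215 cells. Its part in the IFIT ratios was not tested.

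The ISG15 system attaches a ubiquitin-like tag to proteins. The tag, Isg15, stood at 279 against 430.4 CPM, log2 KO/WT 0.63 (0.54 to 0.72). Usp18, which removes the tag and dampens the receptor, was at 12.7 against 25.2 CPM, log2 KO/WT 0.99 (0.59 to 1.40). Herc6, the main ligase for the tag in mice, was at 49 against 82.7 CPM, log2 KO/WT 0.75 (0.55 to 0.97). All 3 genes of the system were thus higher in the KO-labelled neutrophils.

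The oligoadenylate synthetases make the messenger that activates RNase L. Oas3 stood at 118 against 185 CPM, log2 KO/WT 0.65 (0.52 to 0.79), and Oas2 at 78.4 against 107 CPM, log2 KO/WT 0.45 (0.28 to 0.62). Oasl1, a relative that restrains Irf7 translation, was at 99.1 against 158 CPM, log2 KO/WT 0.68 (0.53 to 0.82), and Oasl2 at 316 against 408 CPM, log2 KO/WT 0.37 (0.28 to 0.45). For Oas1a the interval included 0 (0.45, −0.03 to 0.93), and near copies such as Oas1g may share its reads.

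Rsad2 encodes viperin, which makes a chain-terminating nucleotide, and lies beside the nucleotide kinase gene Cmpk2 on chromosome 12. Rsad2 stood at 159 against 293 CPM, log2 KO/WT 0.88 (0.77 to 1.0), and Cmpk2 at 34.2 against 56.4 CPM, log2 KO/WT 0.72 (0.47 to 0.98). Among membrane factors that hinder viral entry, Ifitm1 was at 990.2 against 1729 CPM, log2 KO/WT 0.80 (0.76 to 0.85). Ifitm3 was at 665 against 891 CPM, log2 KO/WT 0.42 (0.36 to 0.48). Bst2, the tether of budding virus, was at 14 against 18.5 CPM, and its interval reached 0 (0.41, −0.0002 to 0.83).

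The Schlafen genes lie together on chromosome 11 and are linked to growth control and quiescence of immune cells. Slfn5 stood at 171 against 355 CPM, log2 KO/WT 1.05 (0.95 to 1.16). Slfn4, known from myeloid cells, was at 526 against 858 CPM, log2 KO/WT 0.71 (0.64 to 0.77). The ratio was smaller for Slfn1, at 587 against 788 CPM, log2 KO/WT 0.42 (0.36 to 0.49), and smallest of the 4 for Slfn8, at 68 against 79.4 CPM, log2 KO/WT 0.22 (0.04 to 0.41), whose reads may be shared with Slfn9.

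Ifi27l2a, an inducible gene of chromosome 12, stood at 509 against 1114 CPM, log2 KO/WT 1.13 (1.07 to 1.19). Rtp4, a modulator of the interferon response, was at 144 against 253 CPM, log2 KO/WT 0.82 (0.70 to 0.94). Trim30a was at 315 against 470.5 CPM, log2 KO/WT 0.58 (0.49 to 0.66), with Trim30d as a similar copy. Xaf1, a pro-apoptotic factor (0.67, 0.30 to 1.06), Samd9l, a restriction factor (0.45, 0.30 to 0.59), and Eif2ak2, the kinase PKR that stops translation on double-stranded RNA (0.48, 0.23 to 0.73), were also higher. Parp14, an ADP-ribosyltransferase, was at 136 against 134 CPM with an interval around 0 (−0.02, −0.16 to 0.11).

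The sensor Ddx58, known as RIG-I, stood at 75 against 97.5 CPM, log2 KO/WT 0.38 (0.20 to 0.56), and Ifih1, known as MDA5, at 71.2 against 89.6 CPM, log2 KO/WT 0.33 (0.15 to 0.51). The interval of Dhx58, the related helicase LGP2, included 0 (0.28, −0.22 to 0.78). Zbp1, which senses Z-form nucleic acid and can start necroptosis, was at 50.4 against 76.8 CPM, log2 KO/WT 0.61 (0.40 to 0.82). None of the 3 RNA helicases reached 1.5-fold.

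Of the transcription factors, Irf7, which amplifies interferon production, stood at 126 against 174 CPM, log2 KO/WT 0.47 (0.33 to 0.60). The ISGF3 subunits differed less: Irf9 was at 111 against 119.6 CPM, log2 KO/WT 0.11 (−0.04 to 0.26), and Stat2 at 46 against 54.2 CPM, log2 KO/WT 0.24 (0.01 to 0.47). Ifi47, a GTPase also induced by interferon-gamma, was at 80.7 against 94.8 CPM, log2 KO/WT 0.23 (0.06 to 0.41).

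The DNA-binding PYHIN genes Ifi204 and Ifi203 lay on opposite sides of 0. Ifi204 stood at 155 against 192 CPM, log2 KO/WT 0.31 (0.18 to 0.43). Ifi203, on 83 and 71 UMIs, was at 14.8 against 9.47 CPM, log2 KO/WT −0.65 (−1.13 to −0.17) and was the 1 member lower by 1.5-fold. The family has similar copies on chromosome 1, so reads may be divided among them. Across the 19 classes Ifi203 was higher in 10, with an interval above 0 in 5 and below 0 in 4. In B cells it stood at 289 against 346 CPM, log2 KO/WT 0.26 (0.14 to 0.38), and in classical monocytes at 300.2 against 200.1 CPM, log2 KO/WT −0.59 (−0.72 to −0.45). Ifi27l2a, by contrast, was higher in 15 classes and Trim30a in 17.

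**Figure D2:**
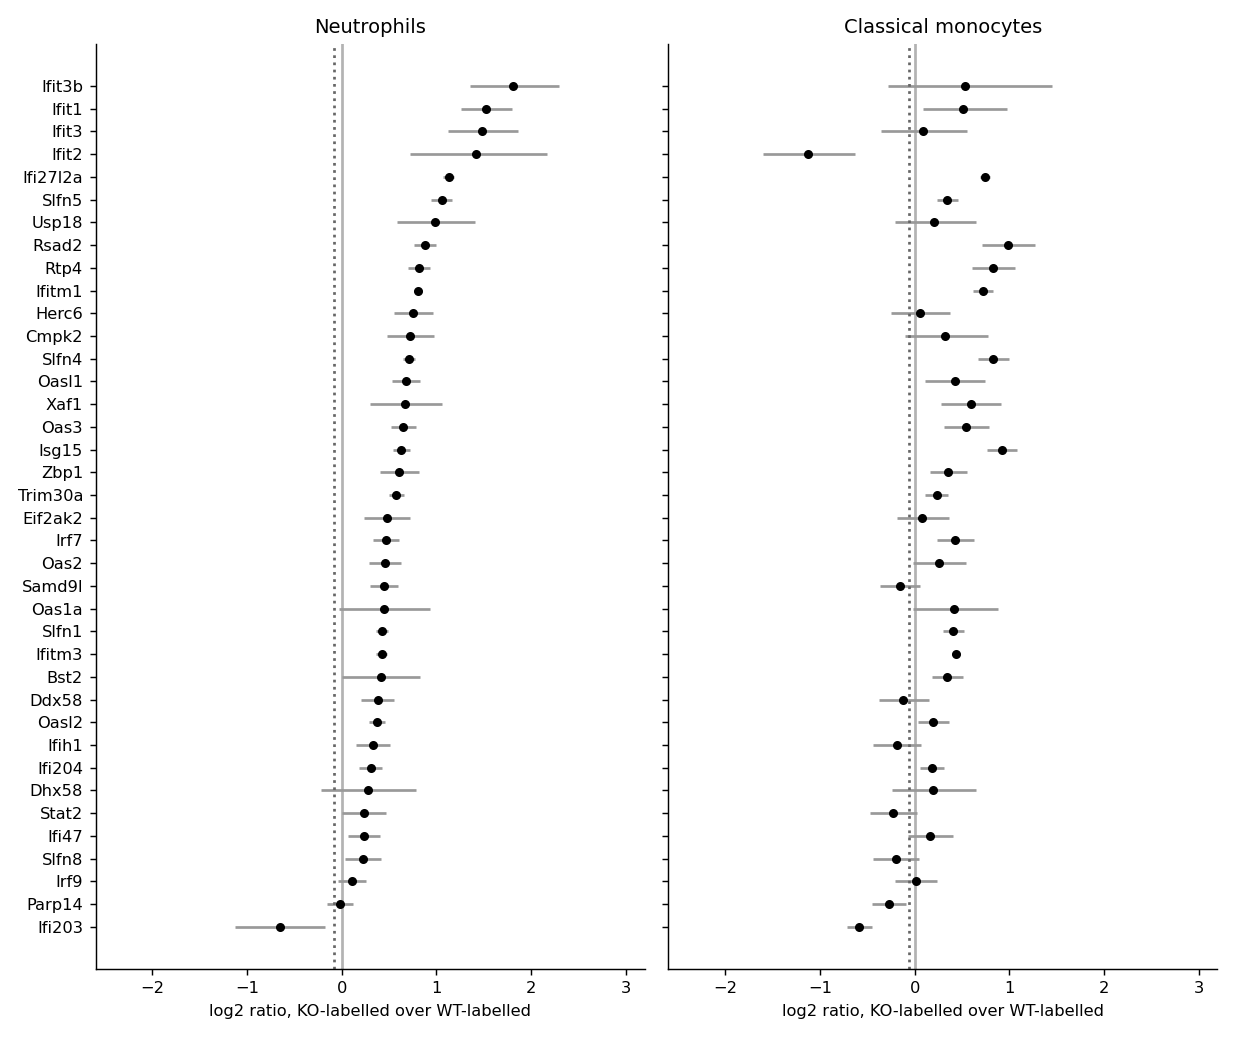
Log2 KO/WT of each member in neutrophils (left) and classical monocytes (right), with bars for the 95% counting interval and a dotted line at the median over all genes. In neutrophils the points run from Ifi203 at −0.65 to Ifit3b at 1.81, and in classical monocytes Ifit2 (−1.13) and Ifi203 (−0.59) lie furthest to the left.

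To see whether single neutrophils differed in the high end or throughout, each cell was thinned to 1000 UMIs, leaving out 107 and 177 cells of lower depth, and the member UMIs left were summed as a score. A cell was called high-score above 17, the 95th percentile of the WT-labelled neutrophils. High-score were 93 of 2177 WT-labelled cells (4.27%, 3.46% to 5.21%) against 365 of 3137 KO-labelled cells (11.6%, 10.5% to 12.8%), with Clopper-Pearson intervals. The log2 ratio of the shares was 1.45 (1.11 to 1.79). At the threshold or 1 above it lay 38 and 134 cells, so high-score cells are a range and not a cell type. Depth before thinning was similar, with medians of 1637 UMIs in high-score and 1804.5 in other KO-labelled cells.

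The rest of the distribution differed too. The 10th percentile of the score was 1 against 3, the 25th 2 against 5, the median 5 against 8, the 75th 8 against 13 and the 99th 25.2 against 35. Cells without any member UMI made up 4.92% against 0.988%. At or under the threshold the mean score was 5.35 against 7.75, log2 KO/WT 0.53 (0.50 to 0.57). Among high-score cells it was 24.3 against 25. High-score cells carried 52.1% of the difference between the means. Both a larger high-score share and higher scores among the other cells were therefore measured, and a shift of all cells by itself also moves cells over a fixed threshold.

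**Figure D3:**
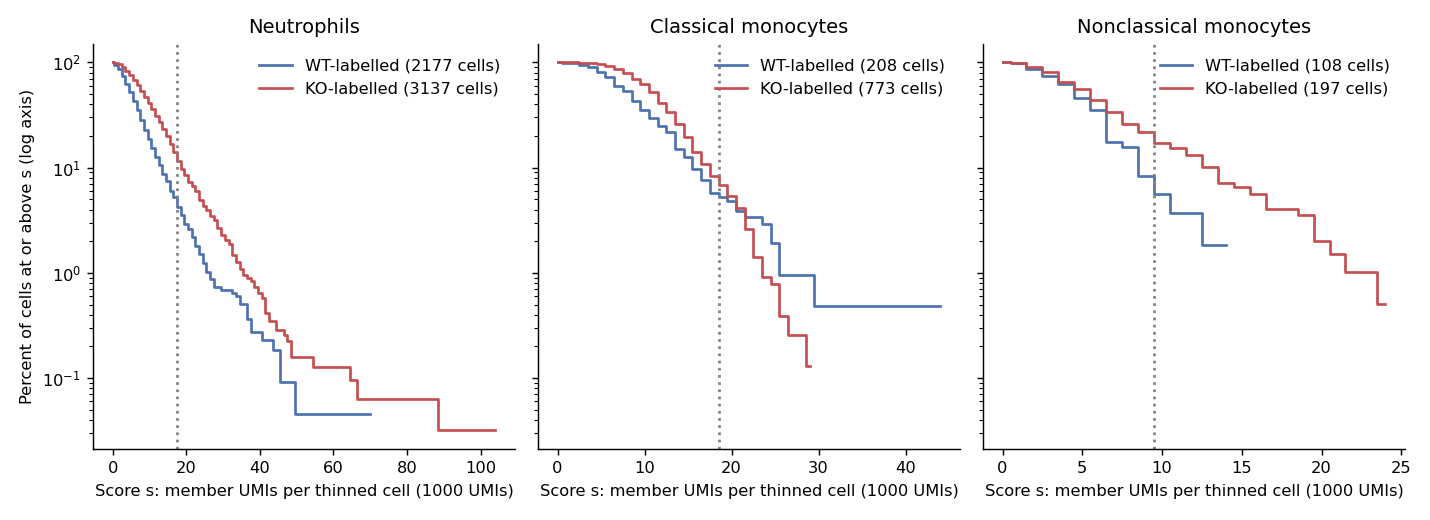
Percent of thinned cells (log axis) with a member score at or above the value on the horizontal axis, per library, in neutrophils, classical monocytes and nonclassical monocytes; the dotted line marks the threshold. Past it lie 11.6% of KO-labelled against 4.27% of WT-labelled neutrophils, and 17.3% against 5.56% of nonclassical monocytes.

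The members differed in how closely they went with a high score. For each one, high-score cells were picked by the score of the other members, so that no gene picked its own cells. In the KO-labelled neutrophils 14 members had a log2 high/other of 2 or more: the IFIT genes, Isg15, Usp18, Herc6, Rsad2, Cmpk2, Xaf1, Zbp1, Bst2, Slfn5 and Ifi203. Ifit3 was at 207 CPM in high-score and 14.8 CPM in other cells, log2 high/other 3.81 (3.24 to 4.40), and 64.7% of its UMIs came from high-score cells. Ifit1 was at 318 CPM in high-score and 37.8 CPM in other cells, log2 high/other 3.07 (2.68 to 3.47). Isg15 was at 1364 CPM in high-score and 295 CPM in other cells, log2 high/other 2.21 (2.05 to 2.37). Among the 14, the share of UMIs from high-score cells ran from 34.8% for Zbp1 to 70.8% for Ifit2, and was 39.3% for Isg15. These 14 are called the most concentrated members below, for their higher level in high-score cells. Whether they shared the same cells was not counted.

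At the other end 7 members had a log2 high/other under 1: Ifitm1, Irf9, Slfn1, Trim30a, Ifi27l2a, Samd9l and Ifitm3. Ifitm1 was at 1935 CPM in high-score and 1779.9 CPM in other cells, log2 high/other 0.12 (0.003 to 0.24), with 12.1% of its UMIs in high-score cells. Slfn1 was at 992 CPM in high-score and 741 CPM in other cells, log2 high/other 0.42 (0.26 to 0.58). The other 17 measured members lay between 1 and 2, among them Irf7 (1.11) and Slfn4 (1.68). GAAANNGAA was in 8 of 12 promoters of the most concentrated members, 5 of 12 of the middle ones and 1 of 6 of the spread ones. This grouping uses the KO-labelled library. By the WT-labelled high-score cells, with fewer UMIs, 23 members had a log2 high/other of 2 or more, with the string in 11 of 20 promoters, and the middle and spread members had it in 1 of 5 and 2 of 5. Irf7 (2.24) and Ifih1 (2.60) stood higher there and Bst2 (0.96) lower, while Ifit3 (5.41) was again high and Ifitm1 (0.42) and Slfn1 (0.55) low. In the runs printed above, Ifit1 and Ifit3 hold 3 matches each, and Ifitm1 and Slfn1 hold 0. These examples are cleaner than the groups of the KO-labelled library. There the concentrated Ifit2, Herc6, Cmpk2 and Xaf1 hold 0 matches, and the spread Trim30a holds 1.

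The median log2 KO/WT over all thinned neutrophils was 0.84 for the most concentrated members, 0.46 for the middle ones and 0.47 for the spread ones. At or under the threshold the medians were 0.50, 0.37 and 0.41, and single members lay far from them on both sides. The groups rest on KO-labelled counts that also enter these ratios, and the KO-labelled library had the larger high-score share. A higher ratio of the most concentrated members over all cells follows in part from that and is no separate result. These medians were not computed for the grouping by the WT-labelled library. Among neutrophils at or under the threshold Ifi27l2a stood at 445 against 1019 CPM, log2 KO/WT 1.19 (1.09 to 1.30). Ifitm1 stood at 995 against 1779.9 CPM, log2 KO/WT 0.84 (0.77 to 0.91), close to its ratio of 0.83 over all thinned neutrophils. Slfn5 (1.0, 0.79 to 1.21) and Rsad2 (0.87, 0.65 to 1.09) were both concentrated in high-score cells and higher outside them. For Herc6 (0.08, −0.34 to 0.50) and Bst2 (0.06, −0.75 to 0.90), also concentrated, the interval outside them included 0. Parp14 was lower there, at 117 against 97.6 CPM, log2 KO/WT −0.26 (−0.52 to −0.01). In each of the 4 neutrophil clusters compared below, unthinned Parp14 was higher instead. Its log2 KO/WT there ran from 0.05 to 0.59, with 0 intervals above 0. Of the difference between libraries, high-score cells carried 19.5% for Ifitm1 and 69.6% for Isg15.

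**Figure D4:**
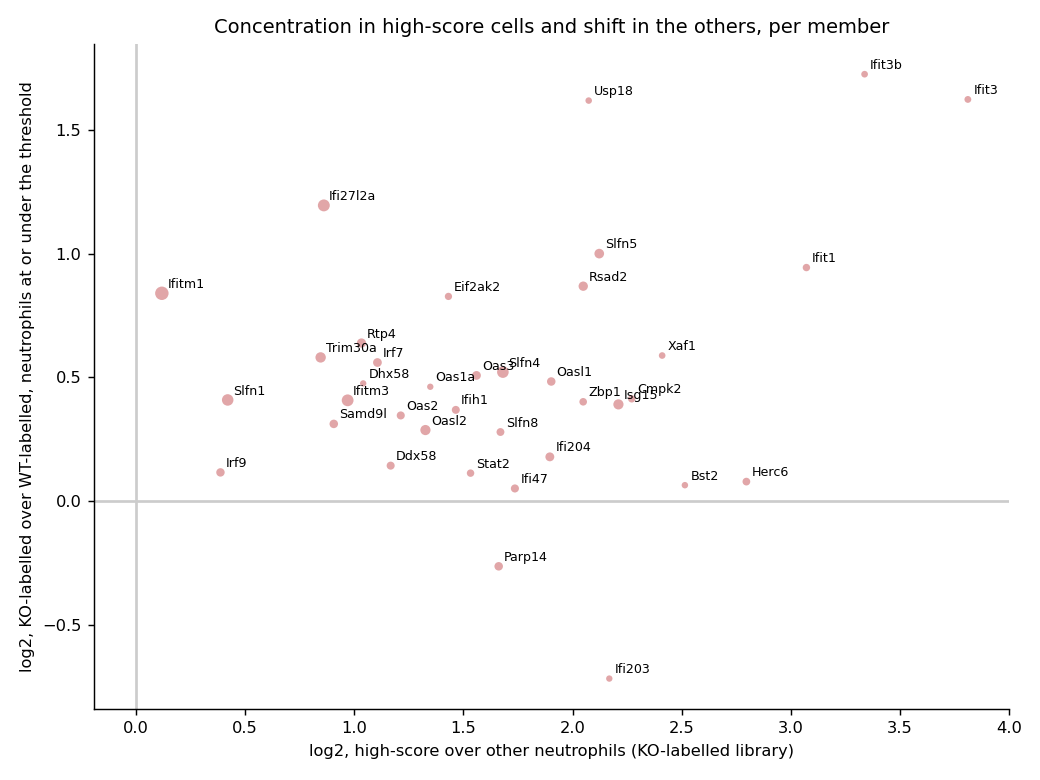
Each point is a member with 50 or more UMIs in thinned neutrophils: across, log2 high/other in the KO-labelled library; upward, log2 KO/WT among neutrophils at or under the threshold. Ifitm1 lies at 0.12 across and 0.84 upward, and Herc6 at 2.80 and 0.08.

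The neutrophil clusters showed the difference to unequal degrees. The summed members stood at 6250.3 against 10051 CPM, log2 KO/WT 0.69 (0.66 to 0.71) in cluster 5 and at 8022 against 11449.5 CPM, log2 KO/WT 0.51 (0.48 to 0.55) in cluster 6. In cluster 12 they stood at 4168 against 7404 CPM, log2 KO/WT 0.83 (0.78 to 0.88), and in cluster 20 at 4445 against 6745 CPM, log2 KO/WT 0.60 (0.52 to 0.68). Of 29 members measured in all 4 clusters, 21 were higher in all 4, and 12 had intervals above 0 in all 4: Ifi27l2a, Ifitm1, Ifitm3, Isg15, Oasl1, Oasl2, Rsad2, Rtp4, Slfn1, Slfn4, Slfn5 and Trim30a. Slfn5 in cluster 12, for example, was at 54.5 against 179 CPM. The median log2 KO/WT over all genes was −0.09, 0.01, 0.01 and −0.01 in clusters 5, 6, 12 and 20. How many of all genes were higher in all 4 was not counted.

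Cluster 11, a neutrophil cluster whose leading genes are members, held 19 and 215 cells, and within it the summed members stood at 19956 against 21024 CPM, log2 KO/WT 0.08 (−0.05 to 0.20). It contained 10 of 93 and 102 of 365 high-score cells. Outside it 3.84% against 8.97% of neutrophils were high-score, with a median score of 5 against 8. Without cluster 11 the members' median log2 KO/WT was 0.39 in place of 0.53, and 11 members in place of 18 were higher by 1.5-fold.

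The 10 genes outside the list with the highest log2 high/other in KO-labelled neutrophils, among 4517 ranked, were Cxcl9, Gbp3, Gm13822, Cxcl10, Ifi207, Rnf213, Gbp5, Gbp2, Zup1 and Plac8. Cxcl9, a chemokine gene of interferon-gamma responses, was at 266 CPM in high-score and 20.6 CPM in other cells. Gbp2, a guanylate-binding protein gene, was at 1148 and 268 CPM.

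In classical monocytes, the blood monocytes that enter inflamed tissue (210 and 797 cells), all 39 members were measured and 31 had more CPM in the KO-labelled library. By 1.5-fold or more 8 were higher and 2 lower, where 7.93% and 11.3% of 10683 genes passed. The median was 0.33 against −0.06 over all genes. Viperin's gene Rsad2 stood at 56.3 against 111 CPM, log2 KO/WT 0.98 (0.71 to 1.27), Isg15 at 169 against 321 CPM, log2 KO/WT 0.92 (0.76 to 1.08) and Slfn4 at 159 against 283 CPM, log2 KO/WT 0.83 (0.67 to 1.0). Rtp4 (85.6 against 152 CPM), Ifi27l2a (1367 against 2290.3 CPM) and Ifitm1 (396 against 653 CPM) were higher as well, and Ifitm3 stood at 2577 against 3497 CPM, log2 KO/WT 0.44 (0.40 to 0.48).

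The IFIT genes had few UMIs in the WT-labelled classical monocytes, and single cells weighed on their sums. Ifit2 stood at 25.5 against 11.7 CPM, log2 KO/WT −1.13 (−1.60 to −0.63), and its UMIs came from 17 and 79 cells. A single cell held 22.6% of the WT-labelled and 5% of the KO-labelled Ifit2 UMIs, and likewise 22.4% and 2.72% of those of Ifit3. For Ifit3, at 23.6 against 25 CPM, log2 KO/WT 0.09 (−0.36 to 0.56), the interval included 0, as it did for Ifit3b (0.53, −0.28 to 1.45), whereas Ifit1 was at 24.1 against 34.4 CPM, log2 KO/WT 0.51 (0.08 to 0.97). Parp14 (−0.27, −0.45 to −0.09) was lower. Irf7 stood at 117 against 158 CPM, log2 KO/WT 0.43 (0.24 to 0.63), and Irf9 at 95.7 against 96.5 CPM. Stat2, Slfn8, Ifih1, Samd9l and Ddx58 had log2 KO/WT from −0.22 to −0.12, each with an interval that included 0. The difference between classes was not tested.

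The score of classical monocytes was higher over most of the distribution. The 10th percentile was 4 against 6, the median 8 against 11, the 90th percentile 15 against 17 and the 95th 18.6 against 20, while the 99th, which rests on few WT-labelled cells, was 25 against 23. High-score (above 18) were 11 of 208 WT-labelled cells (5.29%, 2.67% to 9.27%) against 53 of 773 KO-labelled cells (6.86%, 5.18% to 8.87%), and the log2 ratio of these shares, 0.37, had an interval that included 0 (−0.58 to 1.46). At or under the threshold the mean was 8.04 against 10.3, log2 KO/WT 0.36 (0.28 to 0.44). There Isg15 stood at 132 against 267 CPM, log2 KO/WT 1.02 (0.42 to 1.67), and Ifi27l2a at 1391 against 2249.7 CPM, log2 KO/WT 0.69 (0.51 to 0.88). High-score cells carried 6.86% of the difference between the means. Before thinning, median depth was 7104 UMIs in high-score and 8164 in other WT-labelled cells. In KO-labelled cells it was 6825 UMIs in high-score and 9402.5 in other cells. Over all thinned cells of the class, Ifitm3 (2990 against 3546 CPM) and Ifi27l2a (1500 against 2272 CPM) held the most member UMIs. These genes therefore weigh most on the score.

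The class joined 2 clusters of unequal difference. In cluster 30 (151 and 619 cells), where 6 neutrophil markers also passed the marker limits, the summed members stood at 7929 against 11124 CPM, log2 KO/WT 0.49 (0.46 to 0.51). In cluster 7 (59 and 178 cells) they stood at 10507 against 11827 CPM, log2 KO/WT 0.17 (0.11 to 0.23), with a median over members of 0.10. High-score cells made up 5.33% against 5.31% of cluster 30 and 5.17% against 12.4% of cluster 7. These shares rested on 8 of 150 against 32 of 603 thinned cells in cluster 30. In cluster 7 they rested on only 3 of 58 against 21 of 170. Summed neutrophil markers of the class were at 34228 against 48366 CPM (9 of 12 higher), interstitial macrophage markers at 1719 against 663 CPM (8 of 14 higher) and T cell markers at 198 against 88.7 CPM (0 of 12 higher), and their part in the member values was not tested.

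In nonclassical monocytes, which patrol vessel walls (110 and 198 cells), 30 of 32 measured members were higher, with a median of 0.48 against 0.02 over all genes. By 1.5-fold or more 13 were higher and 0 lower, where 10.4% and 8.43% of genes passed. Rsad2 stood at 18.8 against 92.7 CPM, log2 KO/WT 2.30 (1.30 to 3.49), Isg15 at 75.2 against 171 CPM, log2 KO/WT 1.19 (0.64 to 1.76), and Ifi27l2a at 675 against 1187 CPM, log2 KO/WT 0.81 (0.63 to 1.0). Here the score differed most toward the high end. The 25th percentile was 2.75 against 3, the median 4 against 5, the 75th percentile 6 against 8 and the 90th 8 against 12.4. High-score (above 9) were 6 of 108 WT-labelled cells (5.56%, 2.07% to 11.7%) against 34 of 197 KO-labelled cells (17.3%, 12.3% to 23.3%), a log2 ratio of 1.64 (0.37 to 3.18). At or under the threshold the means were 4.18 against 4.35, and the interval included 0 (0.06, −0.12 to 0.24). High-score cells carried 123% of the difference between the means, because a smaller share of the KO-labelled cells lay at or under the threshold. The percentiles run over all cells, so a larger high-score share raises them too.

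In cluster 27 of these monocytes (33 and 61 cells) 10 neutrophil markers passed, and the summed members stood at 5131 against 8368 CPM, log2 KO/WT 0.71 (0.61 to 0.80). In cluster 29 they stood at 4395 against 5611 CPM, log2 KO/WT 0.35 (0.25 to 0.46). Neutrophil markers of the class summed to 25855 against 26984 CPM (6 of 12 higher), classical monocyte markers to 2451 against 3348 CPM (8 of 12 higher) and interstitial macrophage markers to 1980.5 against 240.2 CPM (6 of 14 higher), and their part in the member values was not tested.

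In interstitial macrophages, which live in the lung tissue outside the air spaces (808 and 682 cells), 14 of 38 members were higher, with a median of −0.17 against −0.03 over all genes. By 1.5-fold or more 0 were higher and 7 lower, where 5.36% and 8.83% of genes passed. Rsad2 stood at 53.1 against 27.2 CPM, log2 KO/WT −0.96 (−1.28 to −0.66). Usp18 was at 18.2 against 7.84 CPM, log2 KO/WT −1.21 (−1.81 to −0.65), and Ifih1 at 100.2 against 64.4 CPM, log2 KO/WT −0.64 (−0.85 to −0.43). Ifi27l2a was an exception at 179 against 260.4 CPM, log2 KO/WT 0.54 (0.42 to 0.66). The summed members stood at 3116 against 3026 CPM in the class as a whole and were lower in both of its clusters, cluster 3 with 2863 against 2534 CPM, log2 KO/WT −0.18 (−0.22 to −0.13) and cluster 15 with 3934 against 3591 CPM, log2 KO/WT −0.13 (−0.18 to −0.08). Neutrophil markers were lower too, at 2826 against 1695 CPM (0 of 12 higher), and their part in the member values was not tested.

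In alveolar macrophages, the phagocytes of the air spaces (999 and 617 cells), 10 of 37 members were higher, with a median of −0.14 against −0.01 over all genes. By 1.5-fold or more 4 were higher and 5 lower, where 4.79% and 5.06% of genes passed. Ifi27l2a stood at 136 against 89.5 CPM, log2 KO/WT −0.60 (−0.78 to −0.43), with Zbp1 (45.5 against 31.8 CPM) and Herc6 (41 against 28.8 CPM) also lower. Ifitm1 was at 4.03 against 15.7 CPM, log2 KO/WT 1.96 (1.32 to 2.62), and Slfn4 at 3.90 against 14.4 CPM, log2 KO/WT 1.88 (1.23 to 2.56), each far under its own neutrophil level. Neutrophil markers in this class were at 296 against 1051 CPM (11 of 12 higher), and their part in those values was not tested.

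**Figure D5:**
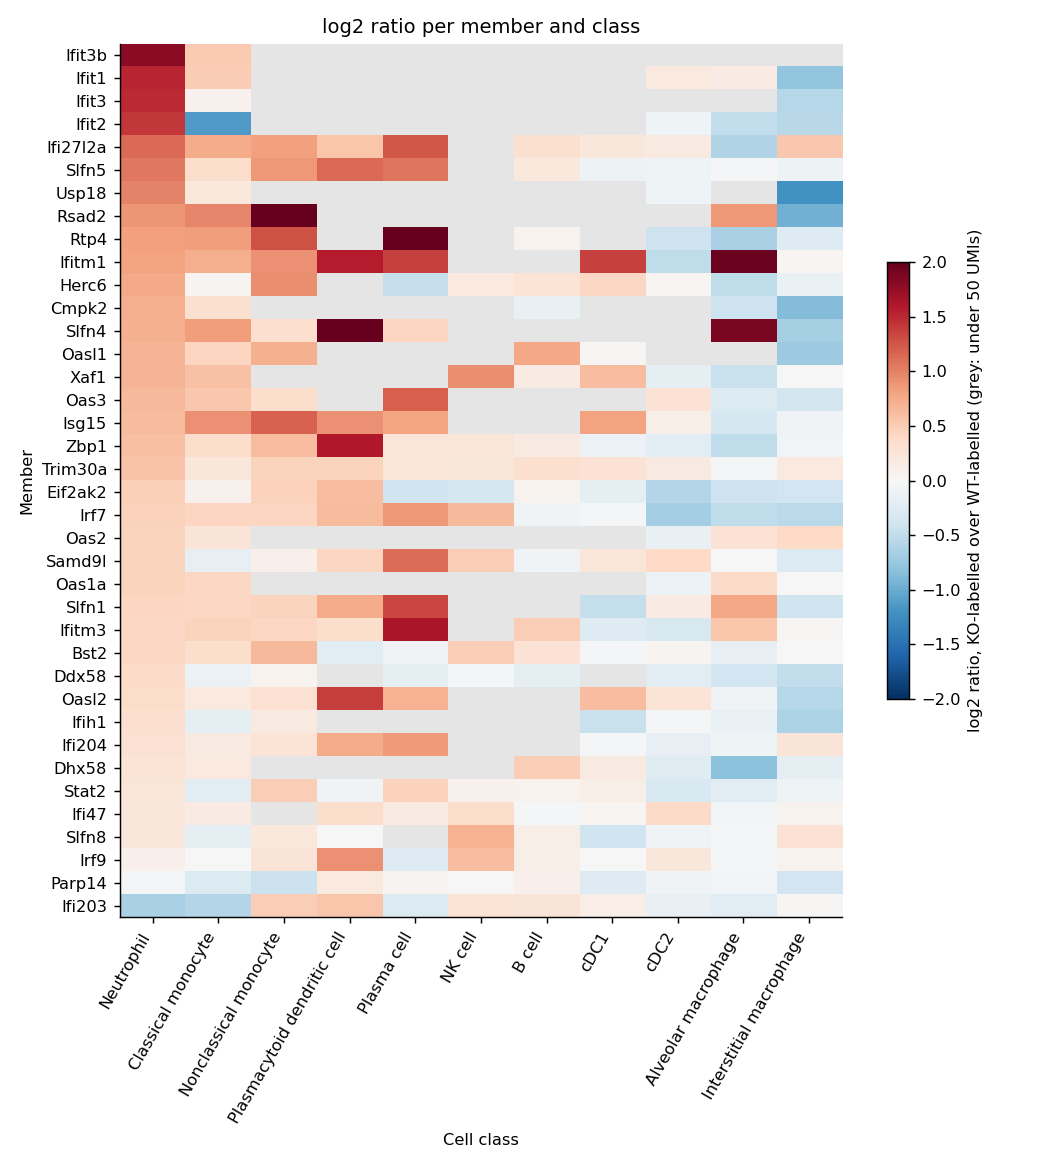
Log2 KO/WT of each member (vertical, in the order of its neutrophil ratio) in 11 cell classes (horizontal), red for higher and blue for lower in the KO-labelled library, grey where a gene has under 50 UMIs over both libraries. The neutrophil column is mostly red, and in the interstitial macrophage column Usp18 (−1.21) and Rsad2 (−0.96) are blue.

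In NK cells, cytotoxic innate lymphocytes (319 and 473 cells), 19 of 23 members were higher, with a median of 0.36 against 0.02 over all genes. By 1.5-fold or more 9 were higher and 0 lower, where 7.03% and 7.07% of genes passed. Xaf1 stood at 21.3 against 40.5 CPM, log2 KO/WT 0.93 (0.17 to 1.74), and Samd9l at 93.1 against 131 CPM, log2 KO/WT 0.49 (0.12 to 0.88). In B cells (1500 and 1130 cells) 26 of 34 were higher, with a median of 0.17 against 0.03 over all genes, and 5 were higher and 1 lower by 1.5-fold, where 4.87% and 5.01% of genes passed. Oasl1 was at 15.5 against 26.5 CPM, log2 KO/WT 0.77 (0.27 to 1.27), and Ifi27l2a at 475 against 595 CPM, log2 KO/WT 0.32 (0.23 to 0.42). The T cell classes had medians from −0.14 to 0.15. In regulatory T cells, which restrain immune responses, Slfn1 stood at 80.9 against 37.7 CPM, log2 KO/WT −1.10 (−2.08 to −0.20), with neutrophil markers at 733 against 251 CPM (2 of 12 higher), whose part was not tested.

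In plasmacytoid dendritic cells, the specialised producers of type I interferon (75 and 93 cells), 27 of 32 members were higher, where 3223 of 6551 genes were, with a median of 0.62 against −0.01 over all genes. Slfn5 stood at 146 against 322 CPM, log2 KO/WT 1.14 (0.75 to 1.53), and Slfn4 at 29.3 against 150.5 CPM, log2 KO/WT 2.36 (1.58 to 3.23). Bst2, a surface marker of these cells in mice, was at 1757 against 1526 CPM, log2 KO/WT −0.20 (−0.34 to −0.07). Neutrophil markers in the class were at 12011 against 15014 CPM (10 of 12 higher). In plasma cells, which secrete antibody, the summed members stood at 1949 against 3462 CPM, but the 5 cells with most member UMIs held 46.9% and 45.9% of them, and neutrophil markers were at 7655 against 14946 CPM (12 of 12 higher).

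Conventional dendritic cells had medians near 0, 0.03 in cDC1 and −0.08 in cDC2. In cDC2 Ifitm1 stood at 198 against 139.7 CPM, log2 KO/WT −0.50 (−0.69 to −0.32), and Ifitm3 at 974 against 782 CPM, log2 KO/WT −0.32 (−0.40 to −0.24). In cDC1 Ifitm1 had the opposite sign, at 8.12 against 21 CPM, log2 KO/WT 1.37 (0.51 to 2.31). Neutrophil markers went the same way as Ifitm1, at 2383 against 1897 CPM (1 of 12 higher) in cDC2 and 320.4 against 656 CPM (9 of 12 higher) in cDC1. Over the 18 classes other than neutrophils, the neutrophil marker sum was higher in 14 and the members' median was above 0 in 13. Their signs were the same in 13 classes. Since both were mostly above 0, many signs would match without any link. The marker sum was at 417 against 2955 CPM (10 of 12 higher) in group 2 innate lymphoid cells, 103 against 250.4 CPM (10 of 12 higher) in NK cells and 111 against 300 CPM (12 of 12 higher) in B cells. The part of neutrophil RNA in those medians was not tested.

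The receptor and signalling genes had medians at or under 0.03 in the same neutrophils. Of all 9257 genes measured there, 5560 were lower and 3697 higher, with a median of −0.08, and the counts of each list stand against that background. None of the 18 type I interferon ligand genes reached 20 UMIs there or in classical monocytes. Of 6 receptor genes 4 were higher, with a median of 0.03. The subunit gene Ifnar1 stood at 74.8 against 68.2 CPM, log2 KO/WT −0.13 (−0.32 to 0.06), and Ifnar2 at 246 against 244 CPM, log2 KO/WT −0.01 (−0.11 to 0.09). Of 10 signal transducers 3 were higher and 7 lower, with a median of −0.22. Irf1, a factor strongly induced by interferon-gamma, was at 1116 against 578 CPM, log2 KO/WT −0.95 (−1.0 to −0.89). Of 10 inhibitors 7 were lower, among them the suppressors of cytokine signalling Socs1 (216 against 135 CPM) and Socs3 (844 against 591 CPM). Of 13 sensors and adaptors 4 were higher, among them Tlr13, a sensor of bacterial RNA (98.2 against 169 CPM).

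Interferon-stimulated genes outside the list were divided in neutrophils, with 41 of 69 higher and a median of 0.15. Ddx60, a helicase that assists RIG-I, stood at 101 against 192 CPM, log2 KO/WT 0.93 (0.79 to 1.07). The chemokine gene Cxcl10 stood at 616 against 336 CPM, log2 KO/WT −0.87 (−0.95 to −0.80), and Cd274, which encodes PD-L1, at 788 against 462 CPM, log2 KO/WT −0.77 (−0.84 to −0.71). Of 31 genes led by interferon-gamma 22 were lower, with a median of −0.19, where 5560 of all 9257 genes were lower, with a median of −0.08. Marker RNA of other cells differed in both directions in the same neutrophils: of 25 marker lists, the interval of the summed log2 KO/WT lay below 0 for 18 and above 0 for 4. T cell markers were at 65.3 against 24.3 CPM (0 of 12 higher) and interstitial macrophage markers at 322 against 122 CPM (3 of 14 higher), whereas classical monocyte markers were at 2152 against 2551 CPM (5 of 12 higher) and plasma cell markers at 298 against 419 CPM (7 of 12 higher). The part of such RNA was not tested.

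Of all 10683 genes measured in classical monocytes 5944 were lower and 4739 higher. Among the transducers 9 of 10 were lower, and Irf1 stood at 622 against 264 CPM, log2 KO/WT −1.24 (−1.33 to −1.14). Ifnar1 was at 85.6 against 65.8 CPM, log2 KO/WT −0.38 (−0.62 to −0.13). Of 31 genes led by interferon-gamma 22 were lower, among them the chemokine gene Cxcl9 (91.4 against 38 CPM). Other interferon-stimulated genes were higher in 45 of 78, with a median of 0.08. The high-affinity Fc receptor gene Fcgr1 was at 50 against 104 CPM, log2 KO/WT 1.05 (0.76 to 1.36), whereas Cxcl10 was at 469.5 against 252 CPM, log2 KO/WT −0.90 (−1.0 to −0.79).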

How the data were processed

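The deposited matrices contain raw UMI counts of genes and antibody tags in barcodes that the authors' software had called as cells, for which the submitters' processing notes name Cell Ranger (7.0.0, 7.1.0) and the build mm10. Barcodes with under 200 genes or over 10% mitochondrial UMIs (80 and 61) and Scrublet doublet calls (260 and 457; expected rate 0.08) were left out. Both libraries were clustered together in scanpy 1.11.5 without integration, on 3000 variable genes, 30 components and 15 neighbours at Leiden resolution 1. A marker passed when detected in 20% of the cells of a cluster at 2-fold over the rest. A name needed 3 passing markers, the 10 leading genes settled sets within 2 markers of each other, and a T cell subset needed 70% of its markers. These naming limits were set after seeing the data.

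The members and lists were chosen with earlier results of these data known. Intervals are exact Poisson for CPM, exact conditional binomial for ratios (0.5 UMI in place of 0) and Clopper-Pearson for shares. Genes with 20 or more UMIs enter medians and counts. Named were members with 50 or more UMIs in neutrophils and classical monocytes, elsewhere up to 3 at each end by the interval bound nearest 0, likewise in each pathway list, plus the receptor genes Ifnar1 and Ifnar2, and the 10 genes most like the members. Ifi44 (neutrophils) was named as the member left unmeasured. Mb21d1, Sting1, Mx1, Mx2, Oas1b, Mnda, Cxcl11 and Pyhin1 of the pathway lists are not analysed here, and 1 further pathway gene is not reported here. The alternatives were other cell filters, doublet handling, clusterings, TMM (edgeR 4.0.16) and DESeq2 1.42.0 size factors, thinning depths and score thresholds. The interval and count computations were tested on simulated data. Other software was Python 3.11.15 with pandas 2.3.3, NumPy 2.4.6, SciPy 1.17.1 and matplotlib 3.10.9, and R 4.3.3.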

Additional observations from a re-analysis of the deposited data

Results flagged for a closer look

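The members' median log2 KO/WT had opposite signs in neutrophils (0.53) and in interstitial (−0.17) and alveolar macrophages (−0.14). Between interstitial macrophages and neutrophils, Usp18 stood at −1.21 and 0.99, Rsad2 at −0.96 and 0.88, and Ifit1 at −0.80 and 1.52. Ifi203 stood at −0.65 in neutrophils and 0.26 in B cells. They are listed because the single library pair of one class went one way and that of the other class the opposite way. Over 7 alternatives the alveolar median ran from −0.28 to −0.0008, the last with doublet calls kept, and the interstitial one from −0.23 to −0.05. None of these differences was tested.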

How the results depend on the processing

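No paired analysis was possible because each genotype has 1 RNA library. The neutrophil median of 0.53 became 0.64 with TMM and 0.67 with DESeq2 factors, which shift all neutrophil genes by 0.11 and 0.14 and all classical monocyte genes by 0.12 and 0.12 (log2). It became 0.35 with clusters weighted alike and 0.39 without cluster 11, and stayed above 0 in all 16 alternatives. The count of 18 neutrophil members higher by 1.5-fold became 6 at 2-fold, 10 with clusters weighted alike and 11 without cluster 11. The classical monocyte median of 0.33 became 0.48 with each library clustered alone, 0.45 and 0.45 with TMM and DESeq2 factors, 0.17 in thinned cells, 0.17 with clusters weighted alike and 0.10 without cluster 30. For the log2 ratio of high-score shares, neutrophils (1.45) gave 1.96 at the 99th percentile, 1.89 at 2000 UMIs and 1.0 without Ifitm1 and Ifi27l2a. Classical monocytes (0.37) gave −1.31 at the 99th percentile, −0.89 without Ifitm3 and Ifi27l2a and 1.39 with each library clustered alone, and were above 0 in 10 of 15 alternatives. The neutrophil difference at or under the threshold (0.53) became 0.50 with 500 genes per cell, 0.50 with 5% mitochondrial UMIs, 0.50 when clustered without interferon genes, 0.49 with doublet calls kept, 0.49 unthinned, 0.49 with another thinning, 0.44 and 0.58 at the 90th and 99th percentiles, 0.45 at 2000 UMIs, 0.45 without Ifitm1 and Ifi27l2a, 0.41 by distinct members and 0.46 without cluster 11. That of classical monocytes (0.36) became 0.68 with each library clustered alone and 0.26 without cluster 30. The cause of these changes was not tested. Leaving out cluster 30, and cluster 11 for the score results, were chosen after seeing the data. Medians ran from 0.12 to 0.69 in group 2 innate lymphoid, 0.17 to 0.52 in nonclassical monocyte, 0.11 to 0.75 in plasma, 0.26 to 0.92 in NK and 0.32 to 0.90 in plasmacytoid dendritic cells. Thinned medians of group 2 innate lymphoid, plasma and gamma-delta T cells are not given, since fewer than 5 members remained. Depth limits the classes with few cells, where intervals are wide.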
